A study of Mus musculus with 12 samples.

Results

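The proteasome genes of mouse preosteoblasts were followed in MC3T3-E1 subclone 14, an established line from mouse calvaria. Members were the protein-coding genes whose GENCODE M21 symbol begins with Psm, a letter from a to g and a digit: 50 of the 52654 genes counted. Of these, 49 encode proteasome subunits, activators, inhibitors or assembly chaperones, and Psmc3ip, a recombination factor named for its binding to Psmc3, is no proteasome gene. The cells were grown on titanium discs with a plain (control) or a nanotopography surface, either isolated or below inserts (0.4 µm pores) that held osteoclasts derived from RAW 264.7 macrophages, with 3 libraries in each of the 4 groups. All 4 groups had medium with ascorbic acid (5 µg/mL) and β-glycerophosphate (7 mM), and RNA was taken on day 7. In the co-cultures the partners were kept apart for 5 days and then together for 2 days, and the osteoclasts received 50 ng/mL RANKL. RANKL and inserts are recorded only for the co-cultures, so they cannot be told apart from the osteoclasts. The design text calls the libraries biological triplicates of 1 subcloned line, so the spread is that between cultures of this line.

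The 26S proteasome degrades proteins tagged with ubiquitin. Its 20S core is a barrel of alpha and beta rings, in which β1 (Psmb6), β2 (Psmb7) and β5 (Psmb5) cut the substrate, and its 19S cap holds the ATPases (Psmc genes) and the other subunits (Psmd genes) that bind, unfold and deubiquitinate the substrate. Interferon signalling replaces the cutting subunits with Psmb9, Psmb10 and Psmb8 to form the immunoproteasome, and adds the PA28 cap (Psme1, Psme2). When proteasome activity is short, the transcription factor NRF1 (Nfe2l1) raises the subunit genes together through antioxidant response elements. In bone, proteasomes limit the osteoblast regulators Runx2 and β-catenin, and inhibitors of the proteasome promote osteoblast differentiation.

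Library totals ran from 5866842 to 9207831 counts, and 13340 genes, 48 members among them, passed the low-count filter. Levels are in CPM, a gene's counts relative to the scaled library total. For the cell type markers and the limits for 0 counts, CPM is relative to the plain total. A gene is called changed at an adjusted p below 0.05 by edgeR's quasi-likelihood test. All 12 osteoblast markers had counts in every group, with summed CPM of 73900 to 96500 in the isolated and control co-culture libraries and 44500 to 56400 in co-cultures on nanotopography. Col1a1, Col1a2 and Ibsp held most of that sum in every group. Against co-cultured control, mean CPM in co-cultured nanotopography was higher for Runx2, Ibsp, Spp1 and Dmp1 and lower for the other osteoblast markers. Of 18 macrophage and osteoclast markers, 10, 11, 14 and 17 had counts in the isolated control, isolated nanotopography, co-cultured control and co-cultured nanotopography groups. Without Ctsk and Mmp9, which held most of the sum in every group, their summed CPM was 4.94 to 8.35, 4.88 to 6.67, 5.76 to 12.1 and 14.4 to 44.0. In the isolated control libraries Ptprc, Adgre1, Itgam, Tyrobp, Calcr, Dcstamp, Atp6v0d2 and Oscar were at 0, and in co-cultures on nanotopography Calcr alone was. The part of other cells in the results was not tested.

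A trend with GC content runs through the comparisons that involve nanotopography. The slope of log2 CPM on GC content, per 10 percentage points, was −0.817, −0.404 and −0.508 in the 3 co-cultured nanotopography libraries and 0.552, 0.191 and 0.518 in the 3 isolated nanotopography libraries. It lay between −0.0876 and 0.203 in the 6 libraries on control titanium. Members ranged from 37.0% GC (Psmc6) to 58.3% GC (Psmd3), with a median of 49.8% against 49.4% for all tested genes. Most results are therefore given also after removing, library by library, a smooth trend with GC content and transcript length (GC-adjusted); the CPM values and per-kb ratios are not adjusted. What produces the trend was not tested.

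Proteasome transcripts were of moderate abundance and were unequal within each complex. Together the members held 0.24 to 0.259% of the counts in the isolated control libraries, 0.276 to 0.289% in isolated nanotopography, 0.226 to 0.243% in co-cultured control and 0.187 to 0.231% in co-cultured nanotopography. The last group overlapped only the co-cultured control libraries. Per kb of exon, the 14 constitutive 20S genes of isolated control cells ran from 3.86 CPM per kb for Psma3 to 127 for Psmb6, with a median of 27.9. The 17 19S genes spanned less, from 19.2 CPM per kb for Psmd11 to 78.4 for Psmc5, with a median of 34.0. Both lowest genes have near-identical pseudogene copies in the annotation, 3 for Psma3 and 1 for Psmd11. These could share their reads, so both low ends are uncertain. The immunoproteasome genes lay low in the same cells, at 3.47 CPM per kb for Psmb8, 3.56 for Psmb10 and 0.723 for Psmb9. Psmb11, the thymus β5, had 0 counts in all 4 groups, which allows at most 0.137, 0.159, 0.13 and 0.14 CPM in the order given above, by counting error alone. Psma8, the testis α4, had 0 counts in 3 groups and 3 counts in the co-cultured nanotopography group. Neither was tested.

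**Figure D1:**
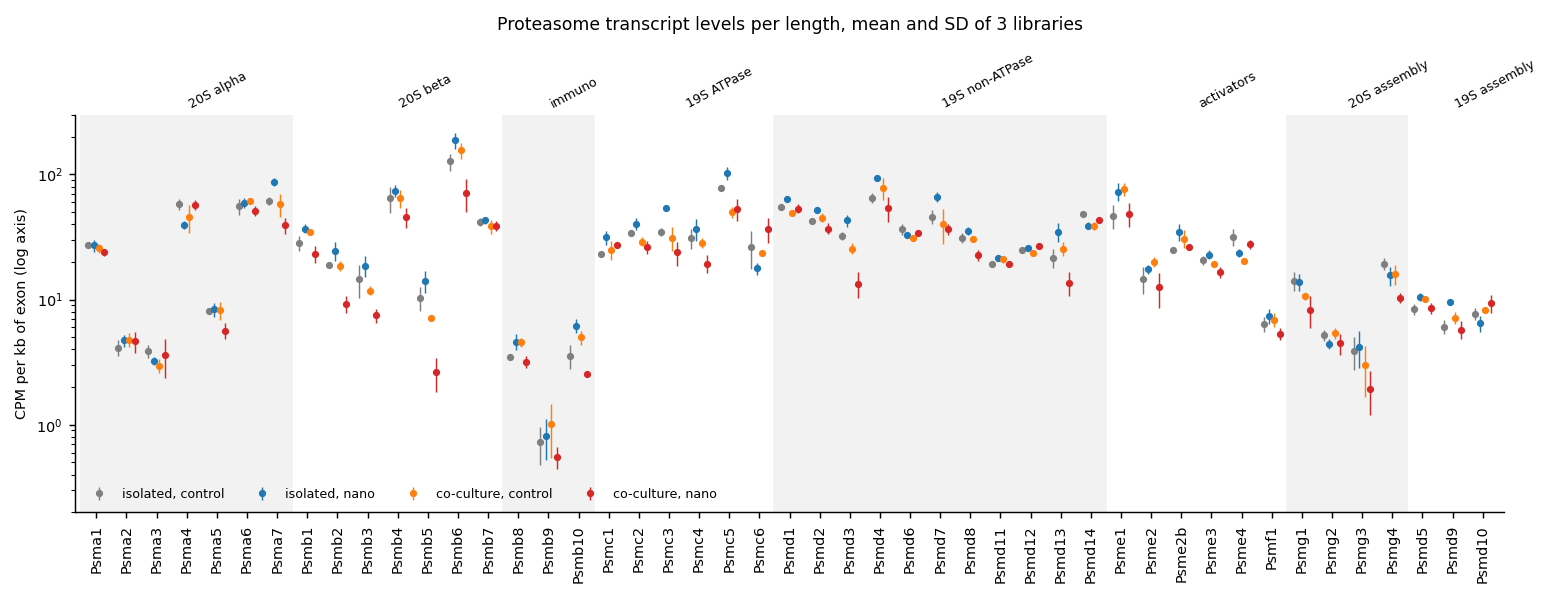
Level of each tested proteasome gene in CPM per kb of exon (log axis), by class, with 1 point for the mean of the 3 libraries in each group and bars for the SD. Psmb6 is the highest of the 20S core in all 4 groups, and the immunoproteasome genes lie below most of the core.

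On control titanium, osteoclast co-culture left most proteasome genes without a called change. Of 48 members, 1 rose (Psme1) and 3 fell (Psmc5, Psme4 and Psmd14), against 19.8% of all tested genes called (11.0% higher, 8.76% lower). The median change was −0.05 on the log2 scale, against −0.02 over all tested genes. None of the 14 constitutive 20S genes was called by edgeR or DESeq2, and at an unadjusted p below 0.05 edgeR had 1 higher and 2 lower. The 20S changes ran from −0.51 (Psmb5) to 0.29 (Psmb6). After GC adjustment 1 member was higher and 5 were lower: Psmb5, Psmd3 and Psmg1 were added and Psmd14 was lost, against 27.4% of all genes called (14.7% higher, 12.7% lower).

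Psme1, the PA28α subunit of the cap that opens the 20S core independently of ATP, was the member that rose. It lies at chr14:55578123-55581529 and overlaps the coding gene Emc9 on the opposite strand, which could share its reads. Its CPM was 48.1, 53.6 and 72.7 in isolated control cells and 89.4, 108 and 87.2 in co-cultured control cells, so the groups did not overlap. The log2 change was 0.71 ± 0.17 (SE; adjusted p = 0.00682), or 1.64-fold, and 0.67 ± 0.11 after GC adjustment. Its partner Psme2 had 0.46 ± 0.20 (adjusted p = 0.112). Psme2 and Psme2b are near-identical copies that can share reads, so their separate values are uncertain.

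Psme4 (PA200), a large activator cap known from sperm and DNA repair, was lower. Its CPM was 256, 228 and 186 in isolated control and 151, 139 and 141 in co-cultured control cells. The co-cultured libraries all lay below the isolated ones, with a log2 change of −0.64 ± 0.12 (adjusted p = 8.69e-04) and −0.59 ± 0.08 after GC adjustment. Psmc5 (Rpt6), a 19S ATPase, had 103, 109 and 97.4 CPM in isolated control and 59.7, 64.6 and 72.9 in co-cultured control cells. These groups did not overlap either, and the log2 change was −0.65 ± 0.13 (adjusted p = 0.00223; −0.71 ± 0.10 after GC adjustment). Psme1, Psme4 and Psmc5 stayed called when any 1 of the 12 libraries was left out. Psmd14, the 19S deubiquitinase, changed by −0.32 ± 0.10 (adjusted p = 0.0305) and lost its call without any 1 of 6 libraries (the 3 isolated control libraries, co-cultured control 2 or 3, or co-cultured nanotopography 3), with an adjusted p of up to 0.139.

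On nanotopography, osteoclast co-culture went with lower levels of most proteasome genes. Of 48 members, 3 were higher and 30 lower, a median change of −0.53, where 59.1% of all tested genes were called (28.7% higher, 30.4% lower) with a median near 0 (−0.00). After GC adjustment 0 members were higher, also at an unadjusted p below 0.05, and 28 were lower, with a median of −0.37, where 38.6% of all genes were called (18.5% higher, 20.1% lower). DESeq2, without the adjustment, had 3 higher and 28 lower. Called lower by both edgeR fits were 21 members, and no member was called in opposite directions. Library composition moved with this comparison. Mitochondrial rRNA took 5.14 ± 1.05% of counts in isolated and 11.6 ± 3.75% in co-cultured nanotopography libraries (SD, n = 3), and the 2 genes Gm26917 and Gm42418 together 6.27 ± 2.38% and 0.636 ± 0.248%. The part of composition in the result was not tested. The bulk RNA does not tell fewer cells of a type from less RNA per cell.

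The constitutive beta ring had the lowest median change of the classes in both fits. Of its 7 genes 6 fell, with a median of −1.30, and 5 fell after GC adjustment, with a median of −0.63. Psmb5, the chymotrypsin-like subunit and the target of bortezomib, had 15, 10.0 and 13.3 CPM in isolated nanotopography cells and 1.56, 2.93 and 2.59 in co-cultured nanotopography cells. It lies at chr14:54614119-54618022. The lowest isolated library was well above the highest co-cultured one, with a fitted level 5.33-fold lower, a log2 change of −2.41 ± 0.25 (adjusted p = 6.43e-07; −1.51 ± 0.23, adjusted p = 1.18e-05, after GC adjustment). On control titanium Psmb5 had 9.0, 7.46 and 11.4 CPM isolated and 6.49, 6.71 and 6.18 co-cultured, which also did not overlap, but its log2 change of −0.51 ± 0.22 was not called (adjusted p = 0.113; 0.0424 after GC adjustment). Psmb5 has 1 near-identical pseudogene copy in the annotation, which could share its reads. Its co-cultured nanotopography levels, at most 2.93 CPM, rest on few reads, so the size of the fold is imprecise.

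Psmb6, the caspase-like subunit, had 163, 123 and 160 CPM isolated and 39.2, 71.8 and 59.0 co-cultured on nanotopography. All co-cultured libraries lay below all isolated ones, with a log2 change of −1.39 ± 0.18 (adjusted p = 6.56e-06) and −0.57 ± 0.11 after GC adjustment. Psmb2 (β4), a structural subunit, went from 24.8, 17.7 and 20.6 CPM to 8.80, 8.40 and 6.54. Its groups were likewise apart, with a log2 change of −1.40 ± 0.17 and −1.05 ± 0.16 after GC adjustment. Psmb7, the trypsin-like subunit, was the beta gene without a call. It had 53.4, 49.1 and 47.3 CPM isolated and 40.7, 49.0 and 45.6 co-cultured, a log2 change of −0.15 ± 0.12 (adjusted p = 0.305), and it was called in none of the 5 comparisons by either fit. Psmb7 overlaps 3 genes, the coding gene Nek6 among them and 2 on the opposite strand, which could share its reads. Psmb5, Psmb6 and Psmb7 encode the 3 cutting sites, and their per-kb levels in co-cultured nanotopography cells were 2.62, 71.0 and 38.9 CPM per kb.

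**Figure D2:**
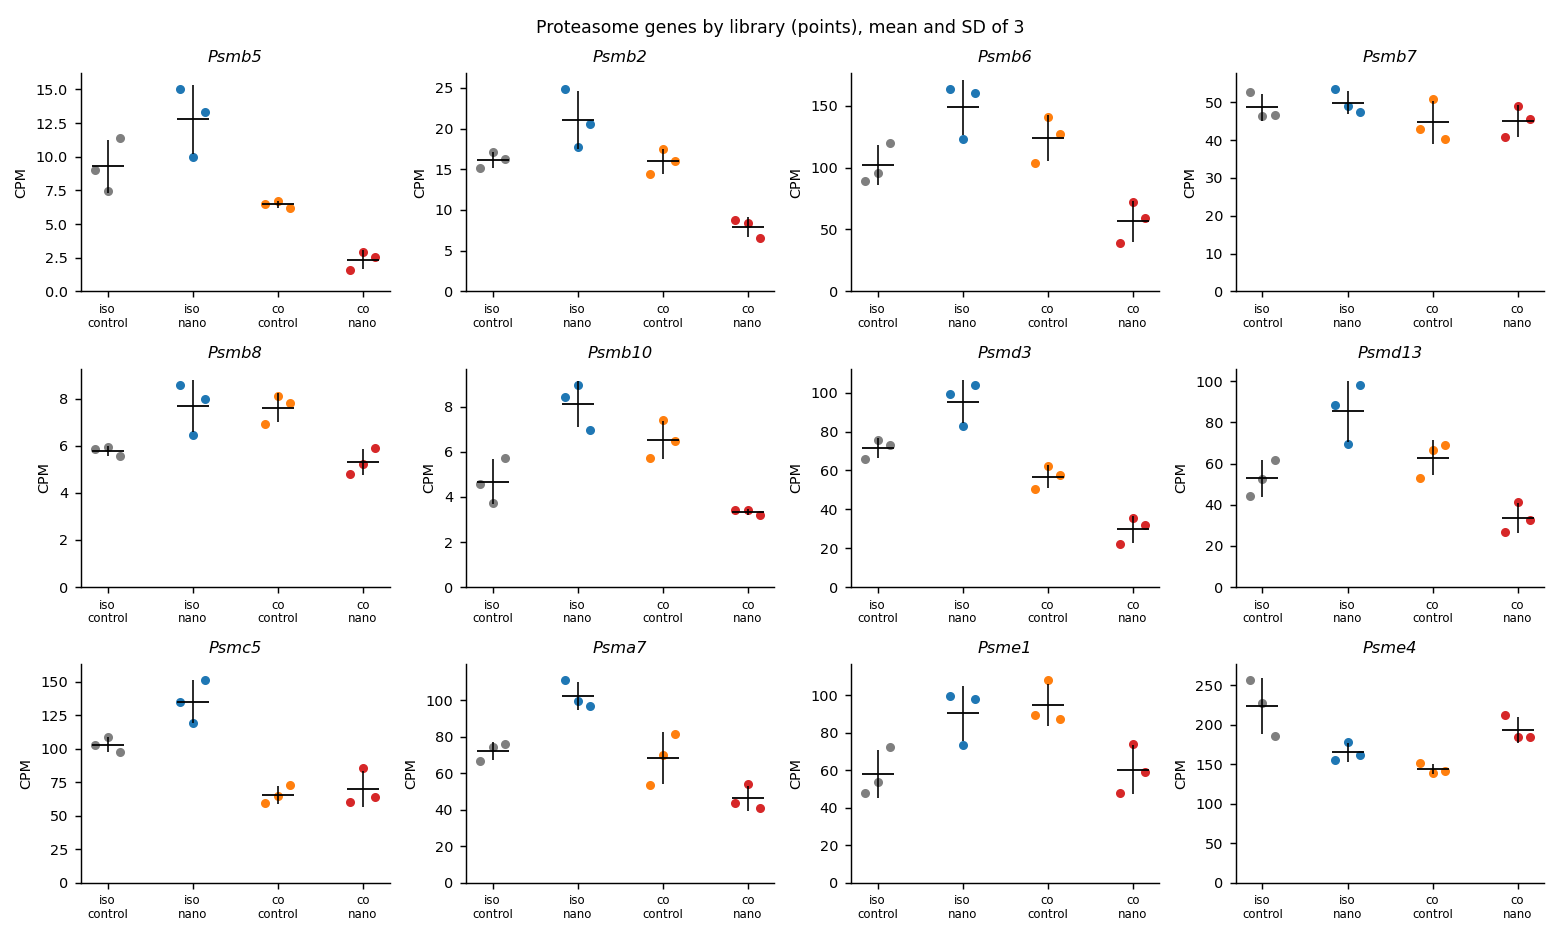
CPM of 12 proteasome genes in each of the 12 libraries (points), with the mean and SD of the 3 libraries per group in black; iso is isolated, co is osteoclast co-culture and nano is nanotopography. Psmb5, Psmb2, Psmb6, Psmd3 and Psmd13 are lowest in all 3 co-cultured nanotopography libraries, and Psmb7 overlaps between groups.

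Upstream bases are shown for 3 members that fell on nanotopography in both fits and that hold an antioxidant response element core, the motif NRF1 reads as a heterodimer with small MAF proteins, in the bases next to the start. Each line gives the 250 bases before the RefSeq start on the gene's strand (GRCm38.p6), 5′ to 3′, at chr14:54617996-54618245 (Psmb5, minus strand), chr11:70525107-70525356 (Psmb6, plus strand) and chr5:123227940-123228189 (Psmd9, plus strand). Capitals mark matches to TGACNNNGC or, in Psmd9, also to a core of the interferon-stimulated response element. The last 27 bases of the Psmb5 line lie in an annotated exon.
Psmb5: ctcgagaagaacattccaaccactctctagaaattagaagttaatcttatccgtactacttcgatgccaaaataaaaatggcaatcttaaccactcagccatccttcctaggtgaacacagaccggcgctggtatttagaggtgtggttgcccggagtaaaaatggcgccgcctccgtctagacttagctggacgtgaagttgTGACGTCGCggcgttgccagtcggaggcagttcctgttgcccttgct
Psmb6: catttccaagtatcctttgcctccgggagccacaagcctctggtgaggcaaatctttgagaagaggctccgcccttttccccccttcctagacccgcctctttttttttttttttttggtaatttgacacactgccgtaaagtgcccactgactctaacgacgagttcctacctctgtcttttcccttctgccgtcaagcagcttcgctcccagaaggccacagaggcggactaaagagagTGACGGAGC
Psmd9: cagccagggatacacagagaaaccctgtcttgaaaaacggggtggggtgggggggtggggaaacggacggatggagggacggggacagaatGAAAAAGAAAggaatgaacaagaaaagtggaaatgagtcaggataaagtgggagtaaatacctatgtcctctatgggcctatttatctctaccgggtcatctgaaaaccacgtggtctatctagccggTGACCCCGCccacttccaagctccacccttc
The response element core began 47, 9 and 31 bases before the start in Psmb5, Psmb6 and Psmd9. Of the 50 members 42 had a promoter window in the RefSeq table, 45 windows in all. On either strand of the whole 300-base windows (50 bases after the start included), TGACNNNGC occurred in 13.3% of member windows and 12.4% of all 32851 windows. Its 6 members were Psmb5, Psmb6, Psmc6, Psmd12, Psmd9 and Psme4, of which Psmc6 and Psmd12 did not fall in either fit with co-culture on nanotopography. CCAAT, the NF-Y box, occurred in 33.3% of member windows and 37.4% of all, and the gamma-activated site TTCNNNGAA in 6.7% and 8.3%. The interferon-stimulated response element core occurred in 11.1% of member windows, those of Psmb3, Psmd4, Psmd9, Psme1 and Psmg4, and in 3.4% of all. A match is a description of the letters and not a shown binding site.

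The alpha ring, which gates the core, changed less before GC adjustment. Of 7 genes, Psma7 and Psma5 fell and Psma4 rose by edgeR, with a median of −0.18; after adjustment 6 were lower, with a median of −0.56. Psma7 (α4) had 111, 99.8 and 96.8 CPM isolated and 43.8, 54.1 and 41.2 co-cultured on nanotopography. These sets were far apart, with a log2 change of −1.14 ± 0.14 (adjusted p = 4.01e-06) and −0.81 ± 0.11 after GC adjustment. Psma4 (α3) moved the other way by 0.53 ± 0.15 (adjusted p = 0.00583), and its adjusted change of 0.25 ± 0.12 was not called. Psma2, with 39.4% GC, changed by −0.03 ± 0.17 before and −0.94 ± 0.16 after the adjustment, so for GC-poor members the call rests on it. Psma3 (40.8% GC) went from 0.17 to −0.65 in the same way.

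In the 19S cap 1 of 17 genes was higher and 11 were lower on nanotopography, with a median of −0.62; after GC adjustment none was higher and 12 were lower, with a median of −0.34. Psmd3 (Rpn3), a lid scaffold, had the lowest log2 change of these 17 genes before adjustment, and Psmd13 after it. Psmd3 had 99.2, 82.8 and 104 CPM isolated and 21.9, 35.5 and 31.8 co-cultured, a log2 change of −1.68 ± 0.15 (adjusted p = 1.41e-07) and −0.74 ± 0.09 after GC adjustment. Psmd13 (Rpn9), another lid subunit, went from 88.3, 69.4 and 98.2 CPM to 26.7, 41.1 and 32.7. Its libraries did not overlap, with a log2 change of −1.34 ± 0.17 and −0.90 ± 0.12 after adjustment. It carries Sirt3 on the opposite strand, and whether reads were counted by strand is not given in the sources used here.

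Among the 6 ATPases 4 fell in both fits: Psmc2, Psmc3, Psmc4 and Psmc5. Psmc3 (Rpt5) had the largest log2 change of these, −1.18 ± 0.15 (−0.55 ± 0.11 after adjustment), and Psmc5 changed by −0.94 ± 0.13 (−0.60 ± 0.10). Psmc6 (Rpt4), the most GC-poor member, went from 37.2, 44.9 and 37.1 CPM to 102, 66.7 and 77.4. The co-cultured libraries were all higher, with a log2 change of 1.04 ± 0.19 (adjusted p = 1.52e-04), but the adjusted change was −0.09 ± 0.12 and was not called. Psmd12 and Psmd6 were called by neither fit in any of the 5 comparisons.

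**Figure D3:**
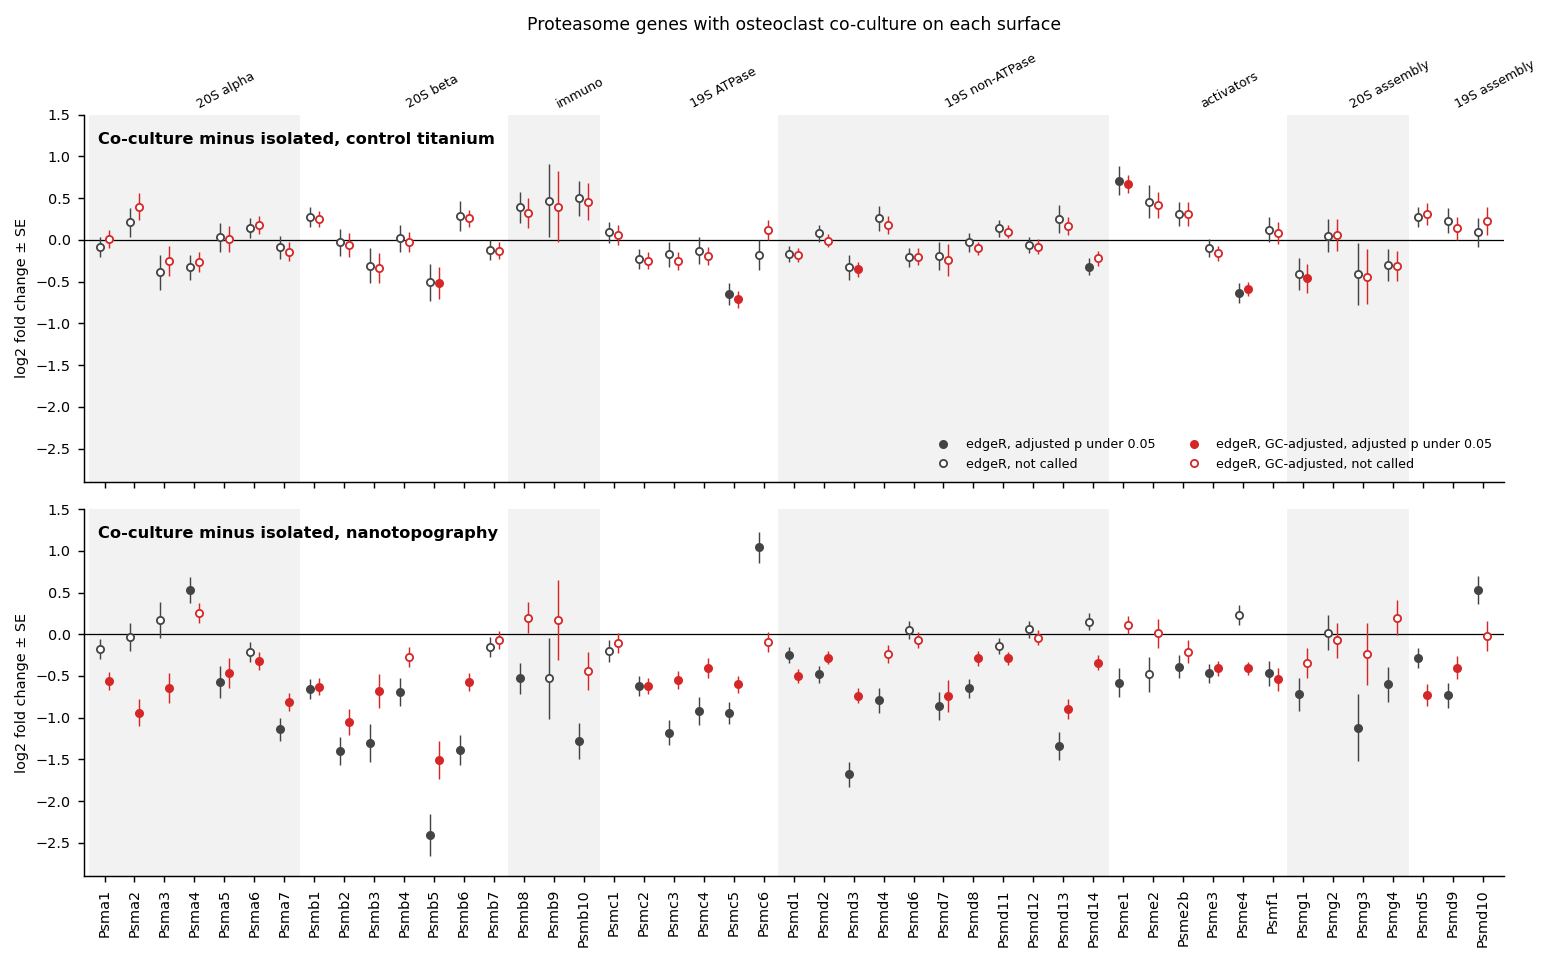
Log2 fold change (co-culture minus isolated) of each tested proteasome gene, with SE, on control titanium (top) and on nanotopography (bottom), by class; dark grey is edgeR, red is edgeR after GC adjustment, and filled points have an adjusted p below 0.05. On control titanium most points lie near 0, and on nanotopography most red and grey filled points lie below it, with Psmc6, Psmd10 and Psma4 above it in grey only.

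Immunoproteasome genes were compared with their constitutive counterparts as per-kb ratios, library by library and with no test. Psmb8 over Psmb5 was 0.351, 0.429 and 0.261 in isolated control, 0.309, 0.349 and 0.325 in isolated nanotopography, 0.575, 0.651 and 0.683 in co-cultured control, and 1.66, 0.96 and 1.24 in co-cultured nanotopography cells. Every co-cultured library was above every isolated one, and those on nanotopography above those on control titanium. Psmb5, the divisor, rested on few reads in co-cultured nanotopography cells, so these ratios are imprecise there. Psmb10 over Psmb7 had another order, with means of 0.0855 ± 0.0205, 0.144 ± 0.0164, 0.13 ± 0.012 and 0.066 ± 0.00693 (SD, n = 3) in the same 4 groups. Psmb9 over Psmb6 had means of 0.00557 ± 0.000975, 0.00427 ± 0.00102, 0.00635 ± 0.00254 and 0.00873 ± 0.00454, and its libraries overlapped between the isolated and co-cultured groups on both surfaces. Psmb8 itself had 5.87, 5.95 and 5.55 CPM isolated and 6.92, 8.11 and 7.84 co-cultured on control titanium, without overlap, and its log2 change of 0.39 ± 0.19 was not called (adjusted p = 0.155). On nanotopography it had −0.53 ± 0.19 (adjusted p = 0.0265) before and 0.20 ± 0.19 after GC adjustment, which was not called. Psmb10 had −1.28 ± 0.22 (adjusted p = 1.13e-04) and −0.44 ± 0.23 (adjusted p = 0.136) after adjustment. Psmb9 had at most 2.41 CPM in any library and no call in any comparison. Psmb9 and Psmb8 lie on opposite strands of chromosome 17, 9957 bases apart, in the MHC region.

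Of the activators and PI31, 4 of 6 were lower with co-culture on nanotopography and 3 after GC adjustment. Psme3 (PA28γ), the nuclear cap, and Psmf1 (PI31), a 20S-binding regulator, fell in both fits, with log2 changes of −0.47 ± 0.11 and −0.47 ± 0.15 (−0.41 ± 0.09 and −0.54 ± 0.14 after adjustment). Psme1 had 99.9, 73.4 and 98.0 CPM isolated and 48.0, 73.9 and 59.0 co-cultured on nanotopography, and the groups overlapped, since co-cultured library 2 lay just above isolated library 2. Its log2 change was −0.58 ± 0.17 (adjusted p = 0.0074) and 0.11 ± 0.11 after GC adjustment, not called. Psme4 changed by 0.23 ± 0.12 (adjusted p = 0.0978) and by −0.41 ± 0.08 (adjusted p = 1.42e-04) after adjustment.

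Assembly chaperones of both particles were mostly lower before adjustment. Of the 20S chaperones, Psmg1 (−0.72 ± 0.20), Psmg3 (−1.12 ± 0.40) and Psmg4 (−0.60 ± 0.21) fell with co-culture on nanotopography and Psmg2 had 0.02 ± 0.21. After GC adjustment none of these 4 was called by edgeR, and at an unadjusted p below 0.05 0 were higher and 0 lower. Of the chaperones of the 19S base, Psmd9 (p27) fell by 0.73 on the log2 scale (SE 0.15; −0.40 ± 0.14 after adjustment) and Psmd5 (S5b) by 0.29 (SE 0.12; −0.73 ± 0.13 after adjustment). The Psmd5 call was lost when any 1 of 10 libraries was left out, all but isolated control 1 and co-cultured nanotopography 2, with an adjusted p of up to 0.22. Psmd10 (gankyrin) rose by 0.53 ± 0.17 (adjusted p = 0.0152) and had −0.02 ± 0.18 after adjustment, not called. Of the 33 members called by edgeR in this comparison, 24 kept the call whichever library was left out. Psmb8, Psmd1, Psmd5, Psmg3, Psmd10, Psmf1, Psma5, Psmg4 and Psme2b did not.

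**Figure D4:**
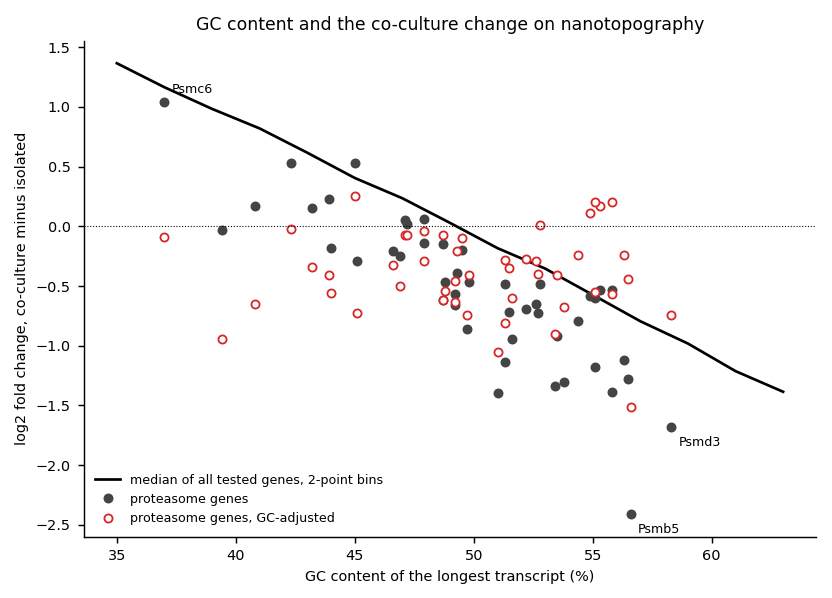
Log2 fold change with osteoclast co-culture on nanotopography against the GC content (%) of the longest transcript, for proteasome genes by edgeR (grey points) and after GC adjustment (red circles), with the median of all tested genes in bins of 2 percentage points (black line). Grey points fall with GC content, mostly below the line of all genes. Red circles, from which the trend with GC content over all genes was removed, show no slope.

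Across 47 proteasome genes, the log2 change with co-culture on nanotopography had a Pearson r of −0.82 with GC content, against −0.69 over all tested genes. After adjustment it was −0.043, a value that follows largely from the adjustment, which removes the trend with GC content over all genes. On control titanium the members' r was 0.18. These values describe genes measured in the same libraries.

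Nanotopography in isolated cells went with small increases. Of 48 members 9 were higher and 2 lower, a median change of 0.21, where 10.1% of all genes were called (4.48% higher, 5.62% lower); after GC adjustment 8 were higher and 0 lower (2 lower at an unadjusted p below 0.05), a median of 0.16, where 4.96% were called (3.11% higher, 1.85% lower). DESeq2 without the adjustment had 15 higher and 4 lower. Psmc3, Psme1, Psmd13 and Psmd9 were higher in both fits. Psmd13 had 44.0, 52.5 and 61.9 CPM on control titanium and 88.3, 69.4 and 98.2 on nanotopography, without overlap, a log2 change of 0.69 ± 0.17 (adjusted p = 0.0226; 0.52 ± 0.11 after GC adjustment). Psmd9 had 14.0, 17.8 and 15.6 CPM on control titanium and 24.8, 24.3 and 25.5 on nanotopography, also apart, a log2 change of 0.65 ± 0.15 (adjusted p = 0.0209; 0.49 ± 0.13 after GC adjustment). These calls were not stable. Leaving out isolated control 1, isolated control 2, isolated nanotopography 1 or isolated nanotopography 3 left 0 members called by edgeR, with 15, 16, 15 and 16 higher and 3, 4, 4 and 5 lower at an unadjusted p below 0.05, and medians of 0.15 to 0.20. Without co-cultured nanotopography 1 the count was 14 higher and 4 lower, and without isolated nanotopography 2 it was 13 and 4.

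Nanotopography in co-culture went with lower levels. Of 48 members 2 were higher and 19 lower, a median of −0.30, where 42.0% of all genes were called (18.6% higher, 23.4% lower). After GC adjustment 1 was higher (Psmc5) and 11 lower, a median of −0.17, where 17.5% were called (7.44% higher, 10.0% lower). The 6 genes lower in both fits were all of the 20S core or lid: Psmb1, Psmb2, Psmb5, Psmb6, Psma7 and Psmd13. Psmb5 had the largest change, −1.44 ± 0.27 (adjusted p = 6.98e-04) and −0.82 ± 0.24 after adjustment. Without co-cultured nanotopography 1 the edgeR count fell from 21 to 12.

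The difference between both co-culture effects was tested as an interaction, and 4 members were higher and 23 lower, where 47.9% of all genes were called (22.5% higher, 25.4% lower). After GC adjustment 1 was higher and 15 lower, where 19.8% were called (8.11% higher, 11.7% lower). Of the 14 constitutive 20S genes 1 was higher and 7 lower, and after adjustment 1 and 8. Lower in both fits were Psmb1, Psmb2, Psmb5, Psmb6, Psmb10, Psma7, Psmd3, Psmd5, Psmd13, Psme1 and Psmf1, and Psma4 was higher in both. Without the adjustment, 24 of the 27 called members kept the call whichever library was left out. Psmf1, Psmd7 and Psmb4 did not, and the edgeR call of Psmf1 was lost without any 1 of 7 libraries (adjusted p up to 0.0749). These comparisons share groups, so their counts are not separate evidence.

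Genes of the wider pathway that carry other names were taken from 4 lists, 50 genes, all tested. The NRF1 list holds the factor, its processing enzymes and its MAF partners; with co-culture on control titanium 6 of its 12 genes rose and 0 fell, where 11.0% of all tested genes were higher and 8.76% lower (after GC adjustment 6 and 1, against 14.7% and 12.7%). Nfe2l1 had 321, 306 and 314 CPM in isolated control and 506, 488 and 493 in co-cultured control cells, far apart, a log2 change of 0.66 ± 0.09 (adjusted p = 1.07e-04; 0.55 ± 0.08 after adjustment). On nanotopography it had 320, 311 and 303 CPM isolated and 331, 383 and 407 co-cultured, a change of 0.26 ± 0.09 (adjusted p = 0.0233; 0.72 ± 0.08 after adjustment), and the call was lost without co-cultured nanotopography 3 or isolated nanotopography 3. Nfe2l2, the related stress factor NRF2, rose by 0.78 ± 0.09 on control titanium and by 0.92 ± 0.09 on nanotopography. After adjustment these were 0.78 ± 0.08 and 0.69 ± 0.08. Of the 3 small MAF partners, Maff rose by 2.12 ± 0.23 on control titanium and 1.52 ± 0.24 on nanotopography (2.09 ± 0.21 and 2.4 ± 0.22 after adjustment). Mafg rose by 0.65 ± 0.11 and 0.38 ± 0.12 (0.54 ± 0.11 and 0.87 ± 0.11), and its call on nanotopography was lost without isolated nanotopography 1. Mafk rose by 0.56 ± 0.16 on control titanium (0.48 ± 0.15 after adjustment), a call lost without co-cultured control 2 or isolated control 1 or 2. On nanotopography Mafk fell by 0.48 on the log2 scale (SE 0.17; adjusted p = 0.0188), a call lost without co-cultured nanotopography 1 and after adjustment (0.21 ± 0.15). Vcp, the ATPase that extracts NRF1 from the endoplasmic reticulum, fell by 0.61 on the log2 scale on nanotopography (SE 0.10; −0.55 ± 0.09 after adjustment). On nanotopography 7 of the 12 rose and 4 fell, where 28.7% of all genes were higher and 30.4% lower, and after adjustment 4 and 2, against 18.5% and 20.1%. Ddi2, the protease that activates NRF1, had 0.12 ± 0.09 on control titanium, without a call.

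Of the 18 ubiquitin genes and shuttles, 6 rose and 2 fell on control titanium, and 5 rose and 6 fell on nanotopography. On control titanium these are 33.3% and 11.1% of the list, against 11.0% and 8.76% of all genes. On nanotopography they are 27.8% and 33.3%, near the 28.7% and 30.4% of all genes. After GC adjustment the counts were 6 and 3 on control titanium, 33.3% and 16.7% of the list against 14.7% and 12.7% of all genes. The adjusted counts on nanotopography were 5 and 8, or 27.8% and 44.4%, against 18.5% and 20.1% of all genes. Sqstm1 (p62), an autophagy receptor for ubiquitinated cargo, had 212, 238 and 287 CPM in isolated control and 583, 616 and 559 in co-cultured control cells. The groups were far apart, with a log2 change of 1.26 ± 0.13 (adjusted p = 2.33e-06; 1.17 ± 0.08 after GC adjustment). Hspa1b, an inducible HSP70, rose by 2.74 ± 0.28 and 1.97 ± 0.29 on the control and nanotopography surfaces (2.69 ± 0.24 and 2.86 ± 0.25 after adjustment).

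Among 8 subunits and assembly factors with other names, 0 rose and Sem1 alone fell on control titanium by edgeR (−0.77 ± 0.24, adjusted p = 0.0348). The Sem1 call was lost after GC adjustment (−0.45 ± 0.29, adjusted p = 0.281). It was also lost without any 1 of 6 libraries (isolated control 1 or 2, co-cultured control 1 or 2, or co-cultured nanotopography 1 or 2), with an adjusted p of up to 0.163. On nanotopography 2 rose and 2 fell, or 25.0% each, against 28.7% and 30.4% of all genes. After adjustment 0 rose and 4 fell, the latter 50.0% of the list, against 18.5% and 20.1% of all genes. Adrm1 (Rpn13), a ubiquitin receptor of the cap, had 24.8, 17.2 and 22.6 CPM isolated and 2.70, 5.60 and 3.50 co-cultured on nanotopography. Its libraries were well apart, with a log2 change of −2.43 ± 0.25 (adjusted p = 4.52e-07; −1.21 ± 0.19 after adjustment). Pomp, the maturation factor of the 20S core, had −0.23 ± 0.13 in that comparison (adjusted p = 0.149; −0.26 ± 0.12 after GC adjustment). Akirin2, which carries proteasomes into the nucleus, had 0.16 ± 0.10 (adjusted p = 0.199; 0.06 ± 0.09 after GC adjustment). Of 12 genes of MHC class I antigen processing 4 rose and 1 fell on control titanium, in both fits, Tap1 the most of those that rose (1.12 ± 0.17, adjusted p = 2.30e-04). The background on control titanium was 11.0% higher and 8.76% lower, and 14.7% and 12.7% after GC adjustment. On nanotopography 1 rose and 3 fell, no larger a share than the 28.7% and 30.4% of all genes. There, after adjustment, 3 rose (Tap1 0.69 ± 0.12), 25.0% of the list, and 0 fell, against 18.5% and 20.1% of all genes.

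**Figure D5:**
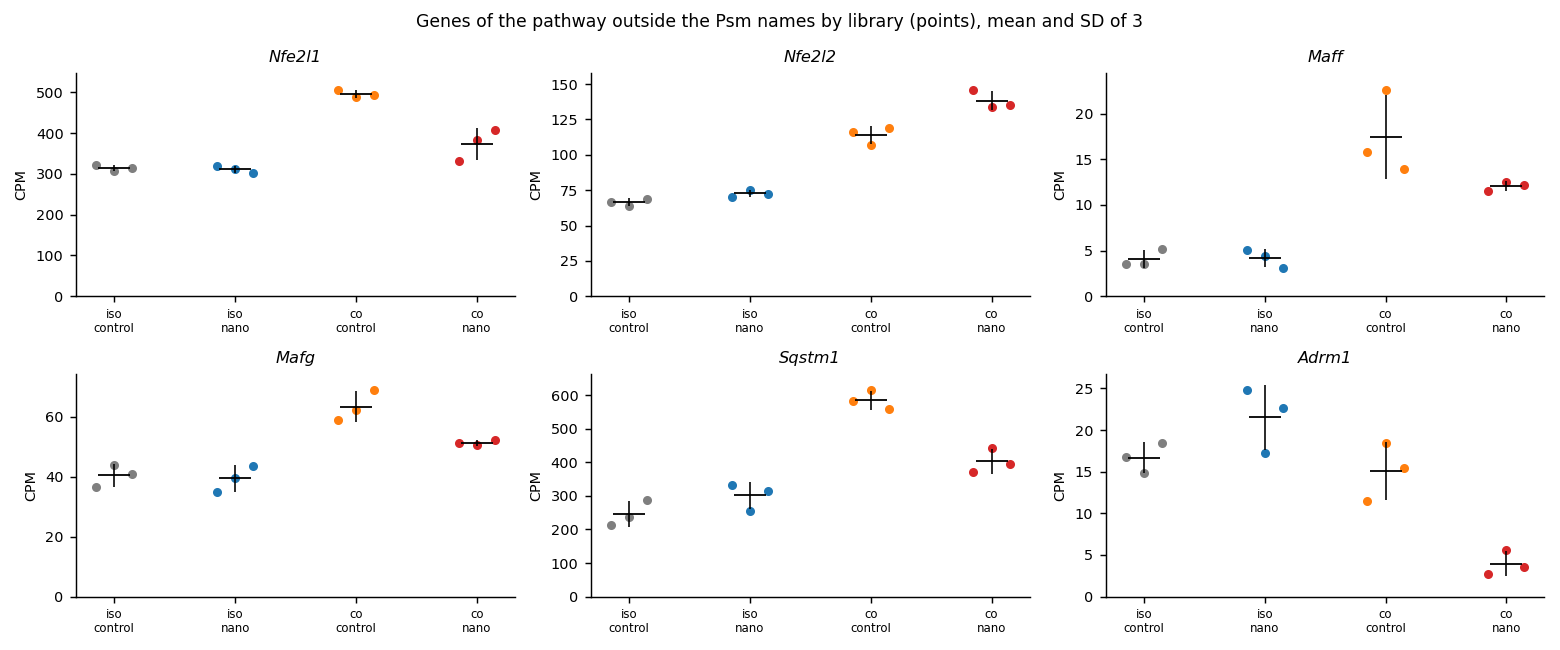
CPM of 6 pathway genes with other names in each of the 12 libraries (points), with the mean and SD of 3 in black; iso is isolated, co is osteoclast co-culture and nano is nanotopography. Nfe2l1, Nfe2l2, Maff, Mafg and Sqstm1 are higher in all co-cultured libraries than in isolated ones on the same surface, and Adrm1 is lowest in the 3 co-cultured nanotopography libraries.

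The 5 protein-coding genes whose log2 CPM followed the mean over the members most closely across the 12 libraries were Thop1 and Cad (Pearson r = 0.992 for both), Hist1h1c, Fmnl3 and Gnai2 (0.99 for all). Their GC contents were 55.1 to 60.2%, above the members' median.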

How the data were processed

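RNA sequencing was done on 3 libraries in each of 4 groups. The deposited files give whole-number counts of reads for every gene, not normalized. The build is mm10 per the submitters' processing notes, which list STAR 2.4, HTSeq, cutadapt, FastQC 0.63 and DESeq2 without roles, annotation release or strand setting. The deposited lists end at different genes, so the 52654 genes complete in all 12 were used, which hold at least 99.924% of each library's counts, and symbols came from GENCODE M21.

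In R 4.3.3, edgeR 4.0.16 (filterByExpr, TMM, robust quasi-likelihood fit, 4 group means) tested 5 contrasts, adjusted by Benjamini-Hochberg over 13340 genes; SE is the absolute log2 change over the square root of F. The alternative GC adjustment entered loess trends (span 0.3) with GC content and transcript length as offsets. DESeq2 1.42.0, other scalings, no filter, a replicate block, a fit of only the groups compared and leaving out each library were also run, the last also with the GC adjustment, added after the data were seen. Scripts were tested on simulated data. Replicate pairs of a group all differed beyond sampling noise (chi-square per gene 5.31 or more). Limits for 0 counts use 3 counts per group and cover counting error only.

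Named are the catalytic, immunoproteasome, activator and chaperone genes, up to 4 called members with the highest and lowest change per comparison, up to 2 members with the smallest p per class, members under the filter, 6 fixed pathway genes and up to 3 called genes per pathway list; from these the text takes its examples, and Psma2, Psma3, Psmd6, Psmd12 and Mafg were chosen after their values were seen. Members and lists were chosen with earlier results of these data known. Near copies (95% over 200 bases, blastn 2.17.0) of 8 members and genes overlapping 24 members, 19 on the opposite strand, can share reads. Paaf1 was not analysed here. Some single genes of the pathway lists are not reported here.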

Additional observations from a re-analysis of the deposited data

Results flagged for a closer look

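The effect of osteoclast co-culture differed between nanotopography and control titanium, by the interaction test of edgeR (adjusted p below 0.05), for 27 proteasome genes. Each is given with its log2 interaction (co-culture effect on nanotopography minus that on control titanium) and, after the semicolon, the GC-adjusted value. For 12 genes the interaction was called in both fits: Psmb5 (−1.91; −0.99), Psmb10 (−1.78; −0.90), Psmb6 (−1.68; −0.83), Psmd13 (−1.60; −1.08), Psmb2 (−1.37; −0.99), Psmd3 (−1.34; −0.39), Psme1 (−1.30; −0.56), Psma7 (−1.06; −0.67), Psmb1 (−0.94; −0.87), Psmf1 (−0.59; −0.62), Psmd5 (−0.57; −1.04), Psma4 (0.87; 0.52). For 15 genes it was called without the adjustment only: Psmd4 (−1.05; −0.42), Psmc3 (−1.01; −0.31), Psmb3 (−1.0; −0.34), Psmd9 (−0.96; −0.53), Psme2 (−0.94; −0.41), Psmb8 (−0.91; −0.12), Psmc4 (−0.79; −0.22), Psmb4 (−0.71; −0.24), Psme2b (−0.70; −0.52), Psmd7 (−0.67; −0.50), Psmd8 (−0.62; −0.18), Psmd2 (−0.56; −0.27), Psmd14 (0.47; −0.13), Psme4 (0.87; 0.18), Psmc6 (1.23; −0.20). The part of the GC trend in these differences was not tested. Without the adjustment, the calls of Psmf1, Psmd7 and Psmb4 were lost without any 1 of 7, 3 and 2 libraries.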

How the results depend on the processing

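Each library held 5866842 to 9207831 counts, which limits genes such as Psmb9 and Psmg3, and Psmb5 in co-cultured nanotopography cells. Every test is also limited by 3 libraries a group. The number of members called with co-culture stayed within 4 to 6 on control titanium and 28 to 33 on nanotopography under the alternatives that keep every library. For nanotopography in isolated cells it was 11, but 17 without the low-count filter, 19 by DESeq2 and 6 with the replicate block and GC adjustment. For nanotopography in co-culture it was 21, but 12 with the GC adjustment and 10 with the block added, and for the interaction 27, but 16 in both. The cause was not tested.

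Leaving out 1 library gave 3 to 6 and 25 to 34 called members with co-culture on control titanium and nanotopography, 0 to 18 and 12 to 24 for nanotopography in isolated and co-cultured cells, and 25 to 33 for the interaction. With GC adjustment, chosen after the data were seen, these ranges were 4 to 10, 25 to 30, 0 to 13, 5 to 12 and 9 to 18. On control titanium the GC-adjusted count was 8 without co-cultured control 3 or co-cultured nanotopography 1, 9 without isolated control 3 and 10 without co-cultured nanotopography 2. For nanotopography in co-culture it was 7 without co-cultured control 1 or 2, 8 without co-cultured nanotopography 3 and 5 without co-cultured nanotopography 1. For nanotopography in isolated cells it was 0 without isolated control 1 or 2 or isolated nanotopography 3, 3 without isolated nanotopography 1 and 5 without co-cultured control 2, and 13 without co-cultured control 3. For the interaction it was 9 without co-cultured nanotopography 1 and 10 without isolated control 1 or isolated nanotopography 3. Replicate numbers showed no clear pairing of the samples. Deviations from group means correlated at −0.391 to 0.303 in 18 same-number pairs (6 over 0.1) and −0.429 to 0.401 in 36 others. Such deviations of 3 libraries sum to 0 within a group, so these values cannot exclude pairing. The replicate block alone gave 4, 32, 12, 21 and 27 called members.

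Directions of changes called in either fit turned only under the GC adjustment, with or without the block. With co-culture on nanotopography the GC-adjusted log2 change, the same within 0.01 with the block, was −0.09 for Psmc6, 0.11 for Psme1, 0.20 for Psmb8 (0.21 with the block), −0.34 for Psmd14, −0.02 for Psmd10, −0.41 for Psme4, −0.65 for Psma3, 0.20 for Psmg4, −0.02 for Ddi2, 0.21 for Tapbp and −0.41 for Usp14. For nanotopography in co-culture it was −0.12 for Psmc6 (−0.13 with the block), 0.03 for Psmb8, −0.34 for Usp14 and −0.13 for Zfand5 (−0.12). For the interaction it was −0.20 for Psmc6 (−0.22), −0.13 for Psmd14, −0.18 for Ecpas, 0.16 for Nfe2l1 and −0.75 for Usp14 (−0.74).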
